A study of Bos taurus with 54 samples.

Results

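The cytosolic chaperonin TRiC is assembled from the products of 8 genes, TCP1, CCT2, CCT3, CCT4, CCT5, CCT6A, CCT7 and CCT8. All 8 were found by symbol among the 32637 genes of the deposited count tables. None of the 8 passed the test of heat stress against the thermoneutral control in either library kit. Over all genes tested, 28.8% passed in the Takara kit and 5.55% in the Lexogen kit. With so few calls in Lexogen, 0 of 8 there does not set the subunits apart from other genes. The samples were leukocytes of whole blood, taken after red cell lysis from 15 Holstein male calves kept in climate-controlled rooms. Blood was taken in the morning, before heat exposure (label Normal, called thermoneutral control here), and in the evening after 12 h of heat exposure (label Heat Stress), so heat and time of day cannot be told apart. Not every calf has a library of both times. The calves' age was not given, and the libraries compared here include no evening sample labelled as control. The groups differ in no other treatment or allele. RNA of these samples was made into 27 libraries with the SMART-Seq v4 3′ DE kit of Takara and 27 with the QuantSeq 3′ kit of Lexogen, which are called Takara and Lexogen here, kits that read the 3′ end of a transcript. Both libraries of animal 20 were left out, because the sample labels and the study's own sample list disagree on their time. This left 13 control and 13 heat stress libraries per kit, 12 animals with both times in each kit, and 24 RNA samples with a library of both kits.

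TRiC is a double-ring ATP-driven chamber in the cytosol that takes up unfolded or partly folded proteins, closes a built-in lid over them and releases them folded. Actin and the tubulins depend on it, and many proteins of the WD40 repeat class, among them cell cycle activators and G protein beta subunits, are folded there as well. Each ring holds every subunit in a fixed place. TCP1, CCT2, CCT4 and CCT5 lie on the side that binds ATP more tightly, and CCT3, CCT6A, CCT7 and CCT8 on the side that binds it more weakly. Leukocytes rely on actin for crawling and engulfing, and some subunit genes are among those that heat shock factor 1 can activate.

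Counts on genes ranged from 5140595 to 20699030 per Takara library and from 4516761 to 58521751 per Lexogen library, where the heat stress library of animal 15 held the largest number and the next held 15607291. The Lexogen control library of animal 19 also stood apart, with an antisense total of 12.4% of its sense total against at most 7.35% in the other Lexogen libraries. The sample numbers form 2 runs, with 8 animals in run 1 and 6 in run 2, which were treated as a possible batch. Markers of neutrophils differed strongly between the times. Of 9 neutrophil markers tested, 8 were called higher under heat stress in Takara and 6 in Lexogen, and their summed level in Takara was 4739 to 21109 CPM (counts scaled to a fixed library total) with a median of 12843 in the controls and 4769 to 112225 CPM with a median of 43110 under heat stress. T cell markers were called lower in 6 of 10 in Takara (summed level 1143 to 2255 CPM in the controls and 674 to 1723 CPM under heat stress) and in 0 of 9 in Lexogen. Monocyte markers were called higher in 1 of 6 in Takara and 0 of 6 in Lexogen, and erythroid markers higher in 1 of 3 and 0 of 2. B cell markers were called in 0 of 8, platelet markers in 0 of 5 and proliferation markers in 0 of 6 in each kit. Over all genes tested, 18.4% were called higher and 10.4% lower in Takara, and 5.08% and 0.468% in Lexogen. In such mixed blood, fewer cells of a type and less RNA per cell cannot be told apart. The part of cell composition in the TRiC values was not tested.

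The 8 genes lie on 7 chromosomes of the ARS-UCD2.0 assembly, so they form no cluster. TCP1, the alpha subunit, lies on chromosome 9 from 96044638 to 96055563. CCT2 (beta) lies on chromosome 5 from 43869186 to 43884991, and CCT3 (gamma) on chromosome 3 from 14486607 to 14501165. CCT4 (delta, from 60465697 to 60478325) and CCT7 (eta, from 11197289 to 11214582) share chromosome 11. CCT5 (epsilon) is on chromosome 20 from 62979746 to 62993754, CCT6A (zeta) on chromosome 25 from 27727918 to 27738084 and CCT8 (theta) on chromosome 1 from 7114205 to 7127950. Protein-coding neighbours lay close to several of them without overlap. The gap was 134 bases between CCT7 and PRADC1, 164 bases between CCT6A and PSPH, 198 bases between CCT3 and TSACC and 389 bases between CCT5 and ATPSCKMT. CCT4 had no annotated gene within 3000 bases on either side.

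TCP1 is the exception, since its end overlaps that of ACAT2, the cytosolic enzyme acetyl-CoA acetyltransferase, by 1465 bases. The deposited tables give each gene an unstranded count, in which a read over both genes is left out as ambiguous, and counts of each strand. Summed over 26 Takara libraries, TCP1 had 30714 sense reads and 1212 unstranded reads, so the unstranded count held 3.95% of the sense count. In Lexogen it had 13823 sense and 1109 unstranded reads, or 8.02%. For the other 7 subunits the unstranded count was 100.2% to 101.1% of the sense count in Takara and 102.3% to 110.7% in Lexogen. ACAT2 kept 37.2% and 28.98% of its own sense reads, and 29735 Takara reads stood antisense to it, close to the TCP1 sense total. Such a loss was uncommon among all genes. Of 10320 genes with at least 1000 sense reads in Takara, 104 (1.01%) had an unstranded count under 10% of the sense count, and 91 of 9749 (0.933%) did in Lexogen. Levels below are therefore in sense CPM, which are sense counts scaled to the same total after TMM correction of library sizes. The tests use the unstranded counts, with the sense counts beside them for TCP1 and for other subunits where stated.

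**Figure D1:**
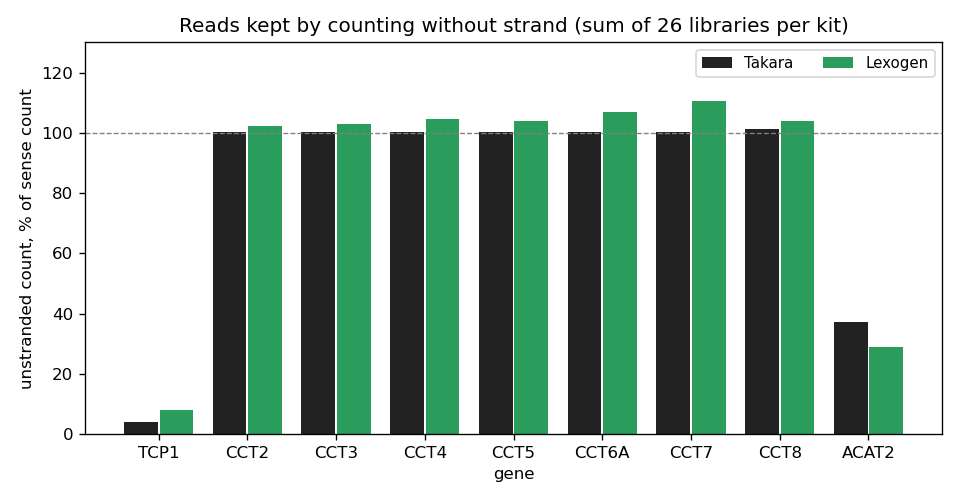
Unstranded read count of each TRiC subunit and of ACAT2, as a percentage of its sense count, summed over 26 Takara (black) and 26 Lexogen (green) libraries; the dashed line marks 100%. TCP1 keeps 3.95% in Takara and 8.02% in Lexogen, ACAT2 keeps 37.2% and 28.98%, and the bars of the other 7 subunits reach 100% or slightly above.

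In the Takara controls, CCT3 had the highest level of the 8 and CCT8 the lowest. The median over 13 control libraries was 155 sense CPM for CCT3, 129 for CCT5, 108 for CCT7, 103 for TCP1, 91.2 for CCT2, 82.9 for CCT4, 66.5 for CCT6A and 36.6 for CCT8. Neighbours in this order overlapped in range, except CCT6A (50.5 to 85.1 CPM) and CCT8 (27.9 to 42.7 CPM). Both kits read transcript ends, and these counts were not divided by length. In the Lexogen controls the order was different, with CCT2 first at a median of 195 CPM, followed by CCT4 (117.8), CCT8 (96.4), CCT5 (73.4), CCT6A (63.2), CCT3 (59.3), TCP1 (54.1) and CCT7 (15.9). Here the ranges of neighbours overlapped down to TCP1, whose lowest control library (40.9 CPM) lay just above the highest of CCT7 (40.2 CPM). Over the libraries of both times, counts were 136 to 3813 sense reads per gene and library in Takara and 14 to 2988 in Lexogen, with the smallest in CCT7.

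The kits gave different levels for the same RNA. Between libraries of the same 24 RNA samples, 7 of 8 subunits passed the test of kit (edgeR, adjusted p under 0.05), against a background of 71.6% of 13354 genes (45.3% higher and 26.2% lower in Takara). On the log2 scale, Takara exceeded Lexogen by 2.23 ± 0.21 (SE) for CCT7, 1.10 ± 0.11 for CCT3 and 0.64 ± 0.10 for CCT5. Lexogen exceeded Takara for CCT8 (Takara minus Lexogen -1.46 ± 0.16), CCT2 (-0.99 ± 0.10) and CCT4 (-0.33 ± 0.13). CCT6A differed by 0.06 (95% interval -0.16 to 0.27) and was not called. Its sense counts gave the other sign, -0.13 (-0.34 to 0.09), and were not called either. TCP1 had the widest gap between count columns, with 1.95 ± 0.58 from its few unstranded reads and 0.61 ± 0.13 from the sense reads. Sense values were also lower for the other subunits called, with the same signs. They were 2.11 for CCT7, 0.88 for CCT3, 0.43 for CCT5, -1.69 for CCT8, -1.20 for CCT2 and -0.54 for CCT4. The share of the summed TRiC level taken by each subunit moved accordingly. CCT3 held 20.05% ± 1.19 (SD, n = 13) of it in the Takara controls and 9.64% ± 3.53 in the Lexogen controls, while CCT8 held 4.61% ± 0.394 and 15.1% ± 4.38.

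The sum of the 8 subunits in Takara overlapped between the times. It was 618 to 867 CPM with a median of 801 in the 13 controls, and 526 to 1085 CPM with a median of 832 under heat stress. The lowest heat stress library was that of animal 15 and the highest that of animal 32, so the heat stress values reached both below and above the control range. In Lexogen the sum was 584 to 981 CPM (median 651) in the controls and 298 to 858 CPM (median 620) under heat stress, again lowest in animal 15. The highest Lexogen control was animal 19, the library with the large antisense total.

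On the side of the ring that binds ATP more tightly, the Takara levels of TCP1, CCT2 and CCT5 were nearly the same at both times. TCP1, which gave the complex its name, was at 62.2 to 123 sense CPM (median 103) in the controls and 62.4 to 143 (median 97.5) under heat stress, with 11 of 13 heat stress libraries inside the control range. Its sense counts gave a log2 fold change of -0.02 (SE 0.12, 95% interval -0.27 to 0.23, adjusted p = 0.928), and its unstranded counts gave -0.05 (adjusted p = 0.872). CCT2 was at 69.0 to 112.8 CPM (median 91.2) and at 58.7 to 132 CPM (median 101). Of its heat stress libraries 2 lay above and 3 below all controls, and the log2 fold change was -0.00 (SE 0.12, -0.24 to 0.24, adjusted p = 0.991). CCT5 was at 86.2 to 159 CPM (median 129) and at 87.2 to 203 CPM (median 124), with a log2 fold change of 0.03 (SE 0.13, -0.24 to 0.30, adjusted p = 0.897).

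CCT4 had the smallest adjusted p of the 8 subunits in Takara. It was at 68.7 to 102 CPM (median 82.9) in the controls and 56.2 to 159 CPM (median 102) under heat stress. Of the heat stress libraries 6 lay above every control and 2 below, and 9 of 12 animals had more CCT4 after heat exposure. The fitted log2 fold change was 0.23 (SE 0.12, -0.01 to 0.47, adjusted p = 0.14), which did not pass the threshold. Animal 18 had the largest value, with 86.8 CPM before and 159 CPM after heat exposure, and without its heat stress library the log2 fold change of CCT4 was 0.15.

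On the side that binds ATP more weakly, CCT3 and CCT6A had small positive fold changes in Takara and CCT7 a small negative one. CCT3 was at 115.3 to 176 CPM (median 155) in the controls and at 112 to 224 CPM (median 174) under heat stress, where 6 libraries lay above and 2 below all controls. Its log2 fold change was 0.08 (SE 0.11, -0.14 to 0.31, adjusted p = 0.602). CCT6A, at 50.5 to 85.1 CPM (median 66.5) and 47.2 to 95.97 CPM (median 79.9), was higher after heat in 9 of the 12 pairs. The fitted log2 fold change was 0.17 (SE 0.12, -0.07 to 0.42, adjusted p = 0.279). CCT7 was at 84.0 to 124 CPM (median 108) and at 62.8 to 150 CPM (median 100), with 5 heat stress libraries below and 2 above all controls. Its log2 fold change was -0.11 (SE 0.13, -0.37 to 0.15, adjusted p = 0.536).

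In Takara, CCT8 had the largest fold change and, under heat stress, the widest spread relative to its level. Its coefficient of variation there was 43.7%. In CPM its standard deviation (18.5) was below that of CCT3 (35.5). Its Takara controls lay close together at 27.9 to 42.7 CPM (median 36.6), and its heat stress libraries ran from 23.7 to 80.8 CPM (median 37.4), with 4 above and 2 below all controls. The highest values came from animal 18 (36.6 CPM before and 80.8 after) and animal 7 (42.7 before and 76.8 after). The log2 fold change was 0.27 (SE 0.17, -0.08 to 0.61, adjusted p = 0.233), and 0.15 without the heat stress library of animal 18. The share of CCT8 in the summed level, 4.61% ± 0.394 in the controls, was 5.27% ± 1.70 under heat stress.

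**Figure D2:**
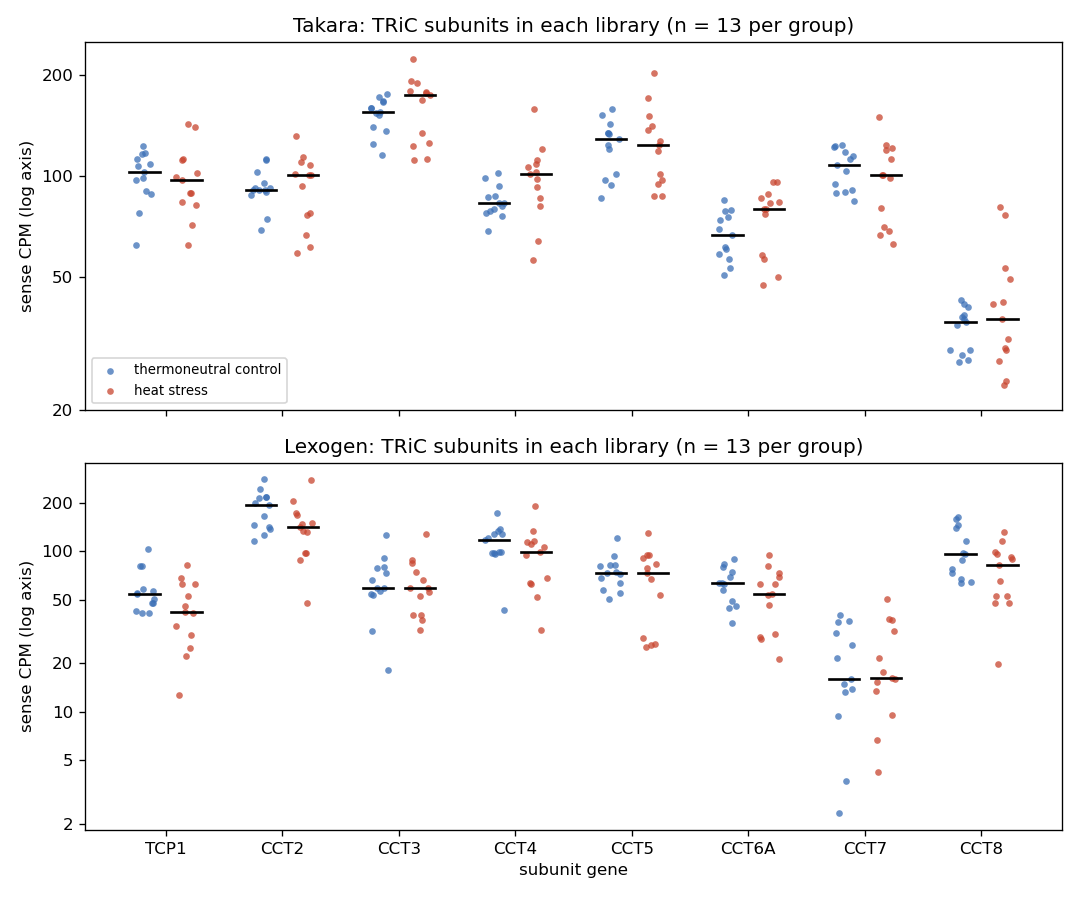
Sense CPM (log axis) of each TRiC subunit in every library of Takara (top) and Lexogen (bottom), 13 thermoneutral controls (blue) and 13 heat stress libraries (red) per kit, with the median as a black line. Heat stress libraries spread below and above the controls, as for CCT8 in Takara, which runs from 23.7 to 80.8 CPM against 27.9 to 42.7 CPM.

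Counted over the complex, 0 of 8 subunits were called in Takara at an adjusted p under 0.05 in edgeR's quasi-likelihood test, where 28.8% of 12620 genes were called (18.4% higher and 10.4% lower). At an unadjusted p under 0.05 the count was also 0 of 8, against 5160 genes. DESeq2, run on all expressed genes, called 0 of 8 as well, and its share over all genes is not given here. The median log2 fold change was 0.05 over the 8 subunits and -0.05 over all genes tested, and the median size of the change regardless of sign was 0.30 over all genes. With total counts in place of TMM scaling, the median over all genes moved to -0.27 and the calls shifted from 2316 higher and 1318 lower to 1291 higher and 2184 lower. CCT3, CCT5 and CCT6A had negative fold changes under that scaling, and none of the 8 was called.

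In Lexogen, 7 of the 8 subunits had negative sense fold changes, the smallest of these in CCT3 (-0.06, SE 0.23). Their signs are not independent, since all come from the same libraries. The median unstranded fold change was -0.23 over the subunits and -0.08 over all genes tested. Again 0 of 8 were called, where 5.55% of 11108 genes were called (5.08% higher and 0.468% lower). CCT8 was the only subunit with an unadjusted p under 0.05 (0.0476, among 1876 genes) in the unstranded counts, and its sense counts gave 0.0544. It was at 63.3 to 164 sense CPM (median 96.4) in the controls and 19.7 to 132 CPM (median 81.7) under heat stress, with 5 heat stress libraries below all controls. Its log2 fold change was -0.48 (SE 0.23, -0.96 to -0.01, adjusted p = 0.287), opposite in sign to that in Takara. CCT2, the most abundant subunit in this kit, was at 115.96 to 281.3 CPM (median 195) and at 47.8 to 279 CPM (median 142), with a log2 fold change of -0.36 (SE 0.20, -0.77 to 0.05, adjusted p = 0.384). TCP1 was at 40.9 to 103 CPM (median 54.1) and at 12.7 to 81.6 CPM (median 41.97), and its sense counts gave -0.39 (SE 0.23, -0.86 to 0.09, adjusted p = 0.413).

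The unstranded TCP1 value in Lexogen rested on a single library. The control of animal 19 held 775 of the 1109 unstranded TCP1 reads. With it the log2 fold change was -1.26 (SE 0.98, adjusted p = 0.576), and without it the value was 0.86 (adjusted p = 0.722). The other unstranded fold changes in Lexogen were -0.08 for CCT3, -0.23 for CCT4, -0.17 for CCT5, -0.23 for CCT6A and -0.16 for CCT7. CCT7 had few reads in this kit, from 2.32 to 40.2 CPM (median 15.9) in the controls and from 4.21 to 50.7 CPM (median 16.2) under heat stress, and its sense counts gave 0.07 (-0.71 to 0.86). Without the control of animal 19 the unstranded values were 0.08 for CCT3 and 0.13 for CCT7 and stayed negative for CCT2, CCT4, CCT5, CCT6A and CCT8, from -0.37 for CCT8 to -0.05 for CCT5. Without the deep heat stress library of animal 15 they ran from -0.40 (CCT8) to -0.10 (CCT3) for CCT3 and those 5 genes and stood at -0.27 for CCT7. None of the 8 was called in either case. The median standard error over all genes was 0.42 in Lexogen and 0.19 in Takara, so differences of the size seen here were less detectable in Lexogen.

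**Figure D3:**
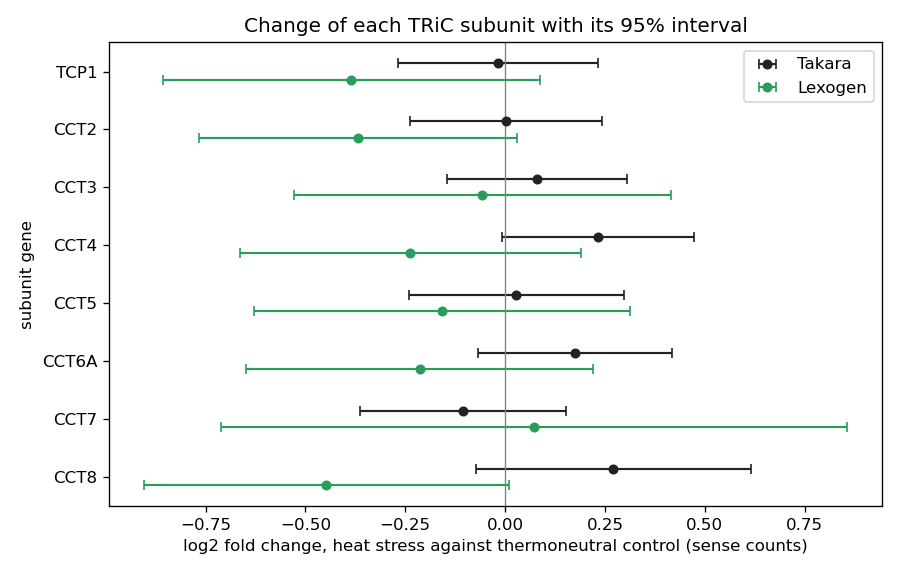
Log2 fold change of each TRiC subunit, heat stress against thermoneutral control, from sense counts in Takara (black) and Lexogen (green), n = 13 libraries per group and kit, with 95% intervals as bars. All 16 intervals include 0, and Lexogen values lie to the left of Takara values for every subunit except CCT7.

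Whether the time difference itself differed between kits was tested in the 48 libraries of the 24 RNA samples. None of the 8 subunits was called, and 0% of 13354 genes were (529 genes at an unadjusted p under 0.05, from unstranded counts). From sense counts, Takara minus Lexogen was 0.65 (SE 0.28, unadjusted p = 0.0249) for CCT8, 0.53 (SE 0.23, p = 0.0295) for CCT4, 0.51 (SE 0.24, p = 0.0428) for TCP1, 0.48 (SE 0.20, p = 0.0208) for CCT6A and 0.46 (SE 0.18, p = 0.016) for CCT2, each with an adjusted p of 0.949. The remaining sense values were 0.37 (SE 0.20, p = 0.0745) for CCT5, -0.05 (SE 0.21) for CCT3 and -0.40 (SE 0.40) for CCT7. In the sense fit, 4.06% of genes had an unadjusted p no larger than that of TCP1. From unstranded counts, CCT6A alone had an unadjusted p under 0.05, with 0.43 (SE 0.20, p = 0.0387). Between the runs of sample numbers, 0 of 8 subunits differed in their time difference, where 2.59% of genes did in Takara and 0.018% in Lexogen. In Takara the unstranded run 2 change exceeded that of run 1 by 0.40 (SE 0.21) for CCT3 and 0.49 (SE 0.25) for CCT5, with adjusted p of 0.347 and 0.337. Within run 1 the Takara sense fold changes were from -0.25 (CCT7) to 0.28 (CCT4), and within run 2 from 0.05 (CCT2) to 0.48 (CCT8).

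Within animals, the subunits often lay on the same side in Takara. All 8 were higher after heat exposure in animals 12, 14 and 32, all 8 were lower in animals 15 and 40, and the remaining 7 animals were mixed. Animal 32 had the largest increase, with a median over the subunits of 0.74 on the log2 scale and a lowest of 0.45. Its summed level was 648 CPM before and 1085 CPM after. Animal 15 had the largest decrease, with a median of -0.65, and its sum was 801 CPM before and 526 CPM after. In animal 40 the median was -0.48, in animal 14 it was 0.45 and in animal 12 it was 0.22. Summed neutrophil markers were higher after heat by 0.30, 0.33 and 1.51 log2 units in animals 12, 14 and 32, and by 2.84 and 2.87 in animals 15 and 40. T cell markers differed by -0.13, -0.20 and -0.16 in the first 3 and by -0.93 and -0.82 in the last 2. Among the animals with mixed subunits, neutrophil markers were higher by 2.48, 2.73, 3.36 and 4.14 in animals 7, 16, 18 and 36. T cell markers differed there by -0.68, -0.70, -0.94 and -0.80. In animals 3, 19 and 41, also mixed, neutrophil markers differed by -0.96, 0.42 and -0.62 and T cell markers by -0.11, -0.15 and 0.12. The markers' part in the TRiC values was not tested.

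Lexogen showed all 8 subunits on the same side in 1 of 12 animals, animal 40, where all were lower with a median of -0.92. The other 11 animals were mixed. Spread was wide in CCT7, whose change within an animal ran from -3.07 in animal 18 to 3.92 in animal 14, where the control library held 14 reads. Over the 10 animals with both times in both kits, the within-animal change of a subunit in Takara was compared with that in Lexogen, giving 8 correlations per coefficient. Pearson's r was 0.54 for CCT7, 0.53 for CCT3, 0.49 for CCT6A, 0.42 for CCT2, 0.41 for CCT5, 0.17 for TCP1, 0.05 for CCT4 and -0.02 for CCT8. The smallest permutation p for r was 0.1001 (CCT7), and every adjusted p was at least 0.385. Spearman's rho was highest for CCT5, at 0.65 (permutation p = 0.0495, adjusted p = 0.301), and 0.60 for CCT2 (permutation p = 0.0751, adjusted p = 0.301). For CCT7 rho was 0.20 (permutation p = 0.577), for CCT3 0.41 (0.248), for CCT6A 0.52 (0.133), for TCP1 0.10 (0.786), for CCT4 0.12 (0.762) and for CCT8 -0.35 (0.329). Without the 2 animals farthest from the Takara median, r was 0.84 for CCT2, 0.50 for CCT7, 0.42 for CCT6A, 0.39 for CCT5, 0.34 for CCT4, 0.24 for CCT3, -0.01 for TCP1 and -0.47 for CCT8, so no relation between the kits was established for any subunit.

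**Figure D4:**
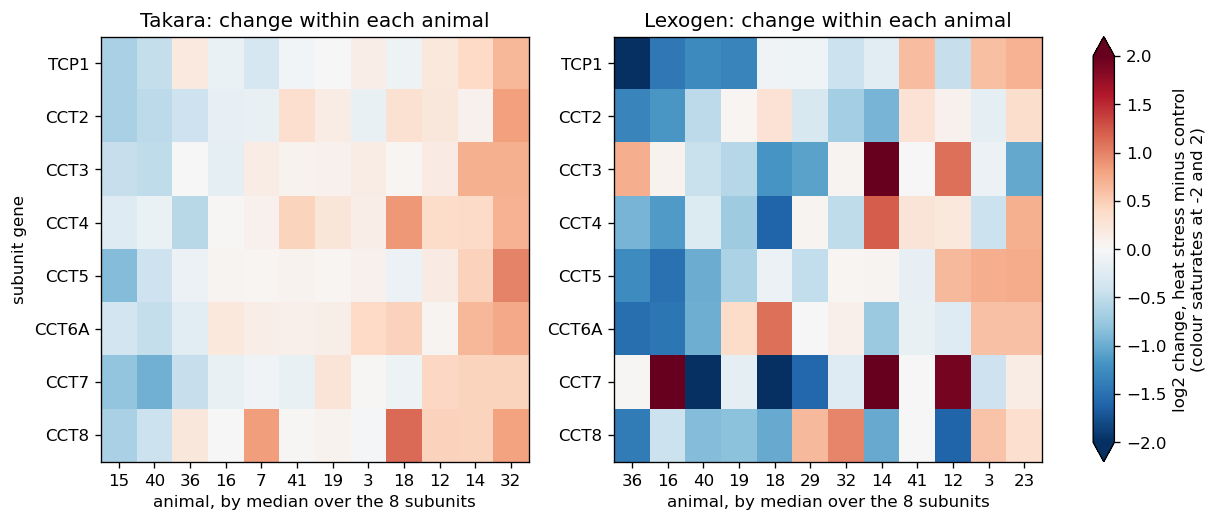
Log2 change of sense CPM within each animal, heat stress minus control, for the 8 TRiC subunits (rows) in the 12 animals (columns, ordered by the median over the subunits) with both times in Takara (left) and Lexogen (right); red is higher and blue lower after heat exposure. In Takara whole columns share a colour in animals 15 and 40 (lower) and 12, 14 and 32 (higher), while Lexogen is mixed outside animal 40.

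The heat stress libraries were more spread than the controls. In Takara the standard deviation of log2 CPM was larger under heat stress for 8 of 8 subunits, by a median of 1.85 times, and it was larger for 74.3% of 12325 genes with a median ratio of 1.29. The 8 subunits are not independent here, since all come from the same libraries and follow each other in them. A ratio above the subunit median of 1.85 was found in 18.7% of genes. The ratio was 2.58 for CCT8, the largest, and 1.26 for TCP1, the smallest. In Lexogen it was larger for 6 of 8 subunits and 81.3% of 10882 genes, with median ratios of 1.52 and 1.37, and 40.6% of genes lay above the subunit median. The coefficient of variation of the summed TRiC level was 11.6% in the Takara controls and 22.8% under heat stress, and 15.5% and 30.4% in Lexogen.

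Across the 26 Takara libraries the subunits followed each other. The 28 pairwise Pearson correlations of log2 sense CPM had a median of 0.70, from 0.46 (CCT4 with CCT7) to 0.89 (CCT3 with CCT5), and 3.08% of all gene pairs lay above that median. With each time centred on its own mean the median was 0.71. These points share the kit, the scaling and, in pairs, the animal. The subunits with the lowest median r to the other 7 were CCT8 (0.58) and CCT4 (0.59), and CCT3 had the highest (0.78). In Lexogen the median was 0.33, from -0.30 (CCT6A with CCT7) to 0.78 (CCT3 with CCT7), and 18.1% of all gene pairs lay above it. There CCT3 and CCT7, both far lower in Lexogen than in Takara for the same RNA, followed each other but not the rest, with medians of -0.06 and -0.05 to the other 7.

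The genes most like the complex were chosen by the Pearson r between their log2 unstranded CPM and the mean of the 8 standardised subunit levels over the 26 Takara libraries. PCNA, the sliding clamp of DNA replication, came first with r = 0.85 (0.55 in Lexogen). MRPL39 and MRPL20, proteins of the mitochondrial ribosome, had 0.85 and 0.83 (0.48 and 0.32 in Lexogen). HSPA9, the mitochondrial Hsp70, had 0.84 (0.47), and the membrane protein gene CLDND1 had 0.83 (0.49). The median over all other genes was -0.00. With sense counts, which restore TCP1, the first 5 were PCNA, MRPL39, PPIL1, HSPA9 and COPS5.

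Partners of TRiC were taken from lists of related genes and tested in the same fits. Prefoldin, the complex that hands unfolded actin and tubulin to TRiC, had 3 of 6 subunits called lower in Takara (beside 10.4% of all genes). PFDN5 was at 203 ± 49.2 CPM (SD, n = 13) in the controls and 144 ± 29.2 CPM under heat stress, a log2 fold change of -0.48 (SE 0.13, adjusted p = 0.0057), and PFDN4 had -0.36 (SE 0.13, adjusted p = 0.0363). PFDN1, the third subunit called, had -0.34 (SE 0.10, adjusted p = 0.0127). In Lexogen 0 of 6 were called, with values of -0.29 for PFDN5, -0.40 for PFDN4 and -0.35 for PFDN1. The median over the 6 was -0.27 in Takara and -0.31 in Lexogen, beside -0.05 and -0.08 over all genes.

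Phosducin-like proteins, which bind TRiC and assist or regulate its folding of particular clients, had 2 of 3 tested genes called higher in Takara (beside 18.4% of all genes) and 1 of 3 in Lexogen (beside 5.08%). PDCL, needed for assembly of G protein beta and gamma subunits, was at 71.5 ± 17.7 CPM in the controls and 123 ± 63.1 CPM under heat stress. Its log2 fold change was 0.81 (SE 0.21, adjusted p = 0.00503) in Takara and 1.06 (SE 0.28, adjusted p = 0.0172) in Lexogen. TXNDC9 had 0.56 (SE 0.18, adjusted p = 0.024) in Takara and 0.54 (SE 0.34, adjusted p = 0.451) in Lexogen. Tubulin folding cofactors take over tubulin after TRiC. Of these, 1 of 6 was called lower in Takara (TBCA, -0.46, SE 0.17, adjusted p = 0.0437), beside 10.4% of all genes, and 0 of 5 were called in Lexogen.

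Among TRiC clients, 2 of 13 tested actin and tubulin genes were called in Takara, both lower (beside 10.4% of all genes called lower), and 0 of 11 in Lexogen. They were TUBB3 (-0.56, SE 0.16, adjusted p = 0.00883) and TUBA1B (-0.31, SE 0.12, adjusted p = 0.0473). Of other proteins reported to pass through TRiC, 2 of 13 were called higher and 1 lower in Takara (beside 18.4% and 10.4% of all genes). In Lexogen 2 of 10 were called higher (beside 5.08%) and 0 lower. The median over the list was -0.18 in Takara and 0.18 in Lexogen. STAT3, a cytokine-activated transcription factor, was higher by 1.91 (SE 0.35, adjusted p = 0.000634) in Takara and 1.499 (SE 0.33, adjusted p = 0.00505) in Lexogen. GNB2, a G protein beta subunit, was higher by 0.71 (SE 0.16, adjusted p = 0.00212) and 0.79 (SE 0.21, adjusted p = 0.0169).

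Of 6 other chaperonin genes, 2 were called in Takara (beside 28.8% of all genes), 1 higher and 1 lower, and 0 of 3 in Lexogen. CCT6B, a paralogue of CCT6A best known from testis, was near the detection limit at 1.34 ± 0.555 CPM in the controls and 0.588 ± 0.356 CPM under heat stress, and was called lower (-1.10, SE 0.31, adjusted p = 0.0092). MKKS, a chaperonin-like protein that works with TRiC in building the BBSome of the cilium, was called higher (0.52, SE 0.13, adjusted p = 0.00416), and had -0.48 (adjusted p = 0.772) in Lexogen. BBS10 and BBS12 had -0.57 and -0.63 (adjusted p = 0.309 and 0.142). HSPD1 and HSPE1, the mitochondrial chaperonin and its lid, had -0.06 and 0.11 in Takara (adjusted p = 0.66 and 0.533) and -0.51 and -0.03 in Lexogen (adjusted p = 0.2745 and 0.973). HSF1 and HSF2, transcription factors of the heat shock response, were not called, with -0.44 and -0.05 in Takara (adjusted p = 0.196 and 0.881) and -0.27 for HSF2 in Lexogen (adjusted p = 0.895).

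**Figure D5:**
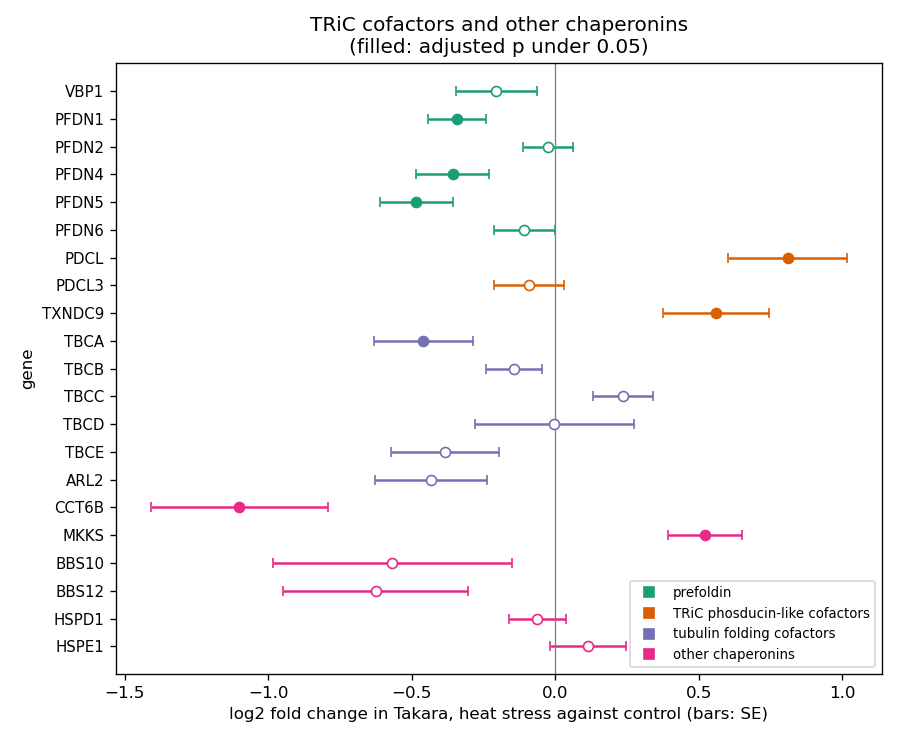
Log2 fold change in Takara, heat stress against thermoneutral control (n = 13 per group), for genes of prefoldin, the phosducin-like cofactors, the tubulin folding cofactors and other chaperonins, with SE as bars and filled points at an adjusted p under 0.05. PFDN1, PFDN4, PFDN5, TBCA and CCT6B lie filled to the left of 0, and PDCL, TXNDC9 and MKKS filled to the right.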

How the data were processed

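Per the labels and the study's methods, the authors trimmed reads with Trimmomatic 0.39, mapped them with STAR 2.7.10b to ARS-UCD2.0 and deposited raw counts per gene in an unstranded and 2 stranded columns, with 4 totals rows that were left out here. FastQC 0.11.9 and MultiQC 1.14 were run on the reads. The column the authors analysed is not given in the sources used here. Reads carry no molecular identifiers, and reads over overlapping genes are not in the unstranded counts.

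Each kit was tested with edgeR 4.0.16 (filterByExpr, TMM, robust quasi-likelihood test) on unstranded counts by time alone, with Benjamini-Hochberg adjustment over all genes tested. Kit was tested with the RNA sample as a block. DESeq2 1.42.0 was an alternative. A log2 CPM used a prior count of 2. Same-numbered libraries come from the same animal, so the numbers pair them by design. Deviations of same-animal libraries correlated above 0.1 in 11 of 12 Takara and 2 of 12 Lexogen pairs. Permutation p-values used 100000 resamples and were two-sided. Neighbours and symbols came from RefSeq (30271 of 32637 IDs matched). The steps were tested on simulated data.

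All 8 subunits were named, together with related genes as follows. From each list up to 2 genes called higher and 2 called lower with the largest change per kit were named, PFDN1 was added after its value was seen, and the other chaperonins and heat shock factors were named wherever tested. A gene that the rule also names is not reported here. The subunits, lists and markers were chosen with earlier results of these data known.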

Additional observations from a re-analysis of the deposited data

Results flagged for a closer look

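The libraries of animal 20 entered no comparison, since the sample labels place them at heat stress and the study's sample list at the control time. With all 27 Takara libraries scaled together, this library had the highest CCT3 level, at 223 sense CPM, and the highest CCT4 level, at 185 sense CPM, both above every control. These values are on another scale than the levels in the report, which were scaled over 26 libraries and reach 224 CPM for CCT3 in the heat stress library of animal 32. Its summed level of the 8 subunits was 904 CPM, rank 24 of 27 from the lowest, while CCT7 (66.1 CPM) had rank 2. In Lexogen the same RNA gave 107 CPM for CCT3 (rank 25) and 113.6 CPM for CCT4 (rank 16), and the sum was 563 CPM (rank 6).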

How the results depend on the processing

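No alternative called any of the 8 subunits for heat stress against control, for the kit by time term or for the run by time term. In the main fits the kit by time term called 0 of 13354 genes and the Lexogen run by time term 2 of 11108. Almost no gene could be called there, so the absence of subunits carries no information. The same holds for Lexogen run 2 and for animal 20 as a control, whose calls over all genes are given below. The alternatives were sense counts, all expressed genes, other scalings, DESeq2, the animal as a block, animal 20 at either time, run as a covariate, each run alone and each library left out, as far as they applied to a comparison. The sense counts by run and with the animal as a block were added after the data had been seen. Fold changes below are log2, and their causes were not tested. In Takara the sign turned for CCT2 with sense counts (0.0020), size factors (0.015), DESeq2 (0.016) and run 2 (0.054, sense 0.053), for CCT3, CCT5 and CCT6A with total counts (-0.12, -0.16 and -0.029), for CCT3 and CCT5 in run 1 (-0.11 and -0.20, sense -0.093 and -0.18), for TCP1 in run 1 (0.14) and by sense in run 2 (0.20), and for CCT7 in run 2 (0.11, sense 0.10). In Lexogen it turned for CCT7 with sense counts (0.072) and in run 2 (0.50, sense 0.68), for CCT3 in run 2 (0.36, sense 0.35), for CCT6A by sense in run 1 (0.070), and for TCP1 with DESeq2 (0.92), the block (0.021) and run 2 (0.98). Leaving out 1 library gave -0.054 to 0.037 for CCT2, -0.049 to 0.059 for CCT5 and -0.14 to 0.0046 for TCP1 in Takara, and -0.21 to 0.080 for CCT3, -0.35 to 0.13 for CCT7 and -1.73 to 0.86 for TCP1 in Lexogen.

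With the animal as a replicate block, fold changes were -0.09 (CCT7) to 0.24 (CCT8) in Takara and -0.41 (CCT8) to 0.021 (TCP1) in Lexogen. No subunit was called with or without the block. Calls over all genes moved with it from 616 to 71 in Lexogen and from 3634 to 3141 in Takara. With so few genes called in Lexogen, the absence of subunits there carries almost no information. They were 756 in Takara run 2, 0 in Lexogen run 2 and 412 in Lexogen run 1, 3274 in Lexogen over all expressed genes and 1006 with DESeq2, and 0 (Takara) and 3 (Lexogen) with animal 20 as a control. Calls of the Takara run by time term were 156 over all expressed genes, 153 with total counts and 180 with the block, against 327. Of the kit comparison, 6 to 7 subunits were called under each alternative. The main fit of that comparison called 71.6% of 13354 genes, and the share over all genes under each alternative is not given here. With so many genes called, this count does not set the subunits apart from other genes. Intervals cover counting error and the spread between libraries. Changes smaller than about the intervals given were not detectable with 13 libraries per group of this spread and depth.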
